A study of Mus musculus with 11 samples.

Results

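The 42 genes described here carry out DNA replication or switch cells into S phase. They were taken as the rows of a mouse gene count table whose symbol is in a fixed list of replication and G1/S genes, a rule that uses no measured value. All 42 symbols were among the 38406 genes of the table, and 41 had enough counts to be tested. By role, 6 belong to origin licensing, 10 to the replicative helicase, 8 to the polymerases, 9 to the sliding clamp, its loader and the single-strand binding protein, 4 to strand joining and chromatin assembly, and 5 to the G1/S switch.

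Before a cell copies its genome, the origin recognition complex, Cdc6 and Cdt1 load rings of Mcm2 to Mcm7 onto DNA, a step called licensing that geminin blocks later in the cycle. Cyclin E with Cdk2, and the E2F transcription factors that the retinoblastoma protein holds back, start S phase, when Cdc45 and the GINS complex turn the rings into active helicases. Many genes of this machinery are known E2F targets, and MYC is known to drive cell cycle entry, so in tumours made with MYC their levels are commonly read as a sign of cycling.

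RNA was sequenced from the 3′ end of transcripts in 11 libraries of fresh frozen cerebellar tumours from CD1 mice, 4 mouse models of medulloblastoma, a childhood tumour of the hindbrain. In the N1ICD group (n = 3) the oncogenes were MYC, Gfi1 and N1ICD, the part of the Notch1 receptor that enters the nucleus, with expression conditional on Math1-positive cells (Math1 is a factor of granule neuron progenitors). In the S100b-cell group (n = 3) they were MYC and Gfi1, conditional on S100b-positive cells. The MYC/Otx2 group (n = 3) had MYC and Otx2, and the MYC/Gfi1 group (n = 2) MYC and Gfi1, in both cases constitutively. MYC is thus common to all 4 groups, no group is normal tissue, and the study set the 2 conditional models beside the 2 constitutive ones, which it describes as earlier models of Group 3 medulloblastoma. Whether a group's libraries are from different mice is not in the labels, and p-values measure only the spread between these libraries.

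Library totals were 2.58 to 3.38 M counts in N1ICD tumours, 12.77 to 15.19 M in S100b-cell tumours, 6.97 to 8.33 M in MYC/Otx2 tumours and 6.53 to 7.53 M in MYC/Gfi1 tumours. Mitochondrially encoded genes took 23.2 to 27.6% of counts in N1ICD tumours, 14.7 to 18.5% in S100b-cell tumours, 5.18 to 5.74% in MYC/Otx2 tumours and 5.96 to 6.00% in MYC/Gfi1 tumours. The column names of the libraries have the same form in both constitutive groups, and other forms in N1ICD and in S100b-cell tumours. What these forms stand for is not stated. Between groups whose forms differ, the model and any difference in handling cannot be told apart. The MYC/Gfi1 libraries differed from each other in cell type markers: 10 mature granule neuron genes summed to 4670 CPM (counts per 1000000) in replicate 2 and 258 CPM in replicate 1, and Purkinje cell and interneuron genes to 1626 CPM in replicate 2 and 27.0 CPM in replicate 1. Oligodendrocyte genes summed to 784 CPM in replicate 2 and 256 CPM in replicate 1, and lymphoid genes to 613 CPM in replicate 2 and 3398 CPM in replicate 1. Endothelial and pericyte genes summed to 6411 and 2364 CPM in N1ICD replicates 2 and 3 and to 325 CPM in N1ICD replicate 1. Microglia and macrophage genes summed to 168 to 278 CPM in N1ICD, 622 to 902 CPM in S100b-cell, 133 to 448 CPM in MYC/Otx2 and 563 to 782 CPM in MYC/Gfi1 tumours. Atoh1, which encodes Math1, had 0 counts in all 3 N1ICD libraries, where 3 counts would be 1.05 to 1.29 CPM. It also had 0 counts in all 3 MYC/Otx2 libraries, where 3 counts would be 0.347 to 0.424 CPM. The mouse symbol Myc had 0.429, 1.05 and 2.43 CPM in N1ICD tumours, 4.21, 2.01 and 3.75 CPM in S100b-cell tumours, 127.6, 31.5 and 66.4 CPM in MYC/Otx2 tumours, and 27.5 and 11.04 CPM in MYC/Gfi1 tumours. Gfi1 ranged from 0.697 to 4.87 CPM in N1ICD, 2.07 to 13.9 CPM in S100b-cell, 0 to 0.283 CPM in MYC/Otx2 and 3.05 to 3.61 CPM in MYC/Gfi1 tumours. Otx2 ranged from 0 to 13.7 CPM in N1ICD, 0 to 2.77 CPM in S100b-cell, 13.7 to 97.0 CPM in MYC/Otx2 and 0.436 to 2.80 CPM in MYC/Gfi1 tumours. The sources used here do not state whether reads from the introduced oncogenes were counted under these symbols. In these bulk samples, fewer cycling cells and less of a transcript in each cell cannot be told apart.

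The replication genes were highest in the MYC/Otx2 tumours for most members and lowest in the MYC/Gfi1 or N1ICD tumours. Of the 41 tested members, 24 had their highest mean CPM in MYC/Otx2, 10 in S100b-cell, 7 in N1ICD and 0 in MYC/Gfi1 tumours, while 22 had their lowest mean in MYC/Gfi1, 13 in N1ICD, 6 in MYC/Otx2 and 0 in S100b-cell tumours. The summed level of the members was 1855, 2409 and 2901 CPM in N1ICD tumours, 3799, 2824 and 2412 CPM in S100b-cell tumours, 4589.6, 3789.9 and 3794 CPM in MYC/Otx2 tumours, and 2238 and 1814 CPM in MYC/Gfi1 tumours. The MYC/Otx2 sums lay above those of N1ICD and MYC/Gfi1 without overlap, and 1 S100b-cell library reached into the MYC/Otx2 range. The sum gives most weight to the members with the highest CPM. Lig1, Mcm5, Cdt1 and Rpa2 had means of 685, 608, 439 and 278 CPM in MYC/Otx2 tumours. Their N1ICD means were 228, 256, 104 and 90.5 CPM. The log2 fold change in N1ICD over MYC/Otx2 was negative for 27 members and positive for 14. The members' median log2 CPM was 4.675 to 5.717 in N1ICD and 5.779 to 5.843 in MYC/Otx2 tumours. The gap in the sums is thus not read as a shift of all members. Within the N1ICD group, replicate 1 lay below the mean of the other libraries of its group in 34 of 41 members, and replicate 2 of MYC/Gfi1 lay below replicate 1 in 31 of 41. Within the S100b-cell group, replicate 3 lay below the mean of the others in 39 of 41 members and replicate 1 in 2. For the MYC/Otx2 libraries this number was 10 to 29.

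**Figure D1:**
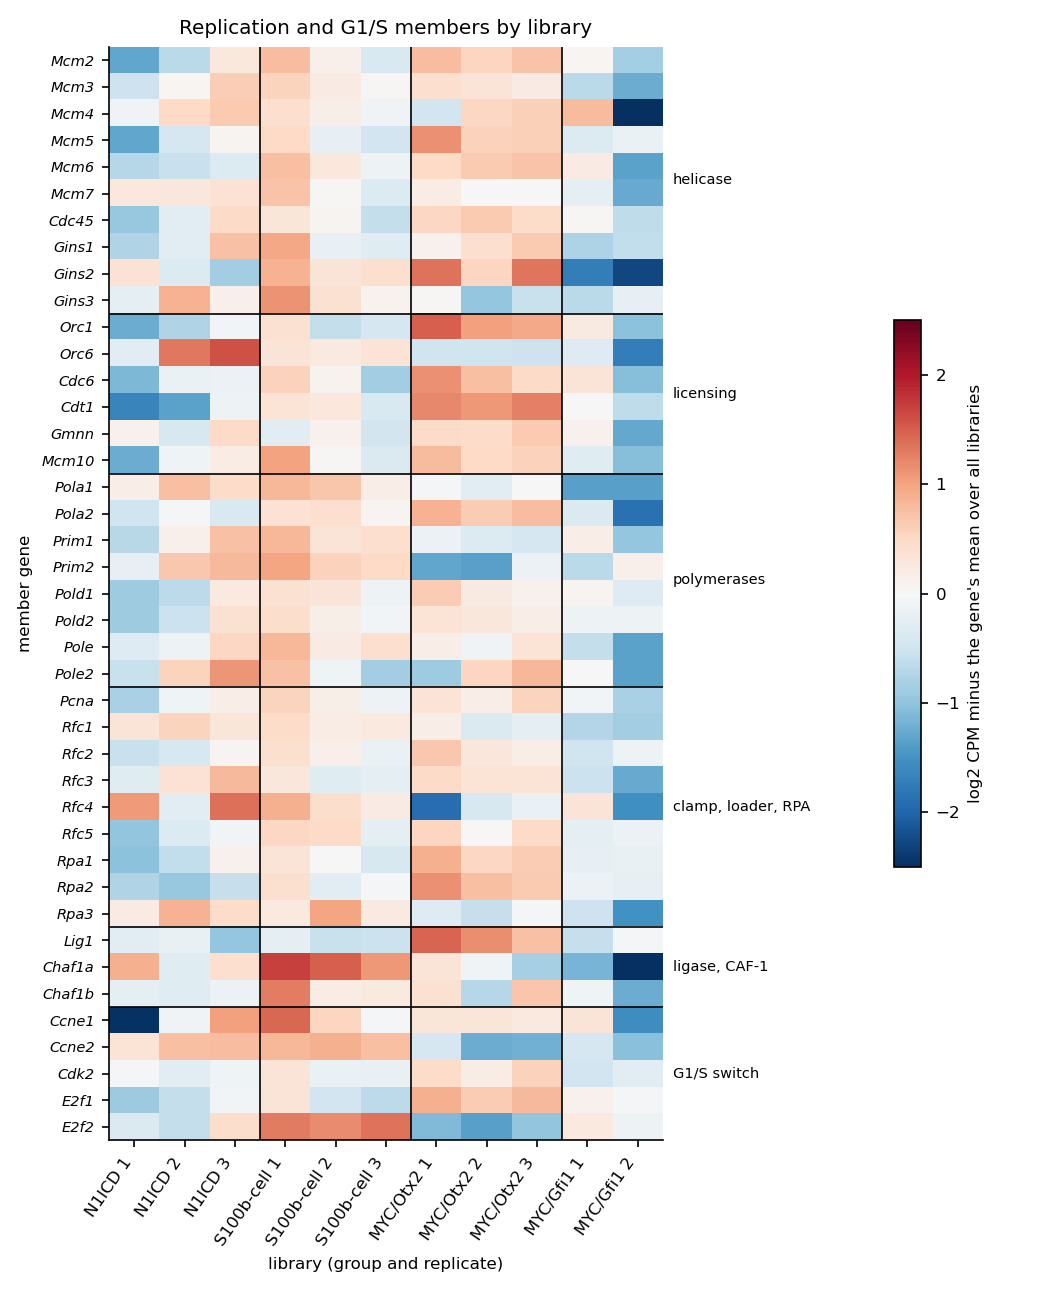
Heat map of the 41 tested members (rows, grouped by role) in the 11 libraries (columns), coloured by log2 CPM minus the gene's mean over the libraries, red above and blue below. Most rows are red in the 3 MYC/Otx2 libraries, and MYC/Gfi1 replicate 2 is blue in most rows. E2f2, Ccne2, Orc6, Prim1, Prim2, Rfc4 and Rpa3 are among the rows below their mean in all 3 MYC/Otx2 libraries.

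Each pair of groups was compared in 1 fit over all genes, and a gene was called at a Benjamini-Hochberg adjusted p under 0.05 in the edgeR quasi-likelihood test. Between N1ICD and MYC/Otx2 tumours, 2 members were higher and 8 lower in N1ICD, against a background of 12% of all tested genes called higher and 9.76% called lower. Between S100b-cell and MYC/Otx2 tumours, 3 were higher and 2 lower in S100b-cell, against 10% and 7.89% of all genes. That split was 3 and 4 with RLE scaling and 4 and 1 with upper-quartile scaling. Between N1ICD and S100b-cell tumours, 0 members were called with edgeR, against 0.808% of all genes called higher and 0.407% called lower. There, 5 members had an unadjusted p under 0.05, as did 18.7% of all genes; DESeq2 called 2 (E2f2 and Rpa2) and limma-voom called 1 (E2f2).

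Against the MYC/Gfi1 tumours, 3 members were higher and 0 lower in N1ICD, where 5.47% of all genes were called higher and 6.05% lower. In S100b-cell tumours 3 were higher and 0 lower, where the background was 2.34% and 2.01%. In MYC/Otx2 tumours 4 were higher and 0 lower, where it was 2.43% and 3.03%, and RLE scaling gave 3 and 1. These counts turned on which of the MYC/Gfi1 libraries was in the fit. Without its replicate 2, which held the mature neuron genes, N1ICD had 1 member called, S100b-cell 0 and MYC/Otx2 0, where 4.94%, 0.374% and 1.34% of all genes were called in either direction. Without its replicate 1, the counts were 8 in N1ICD, 12 in S100b-cell and 11 in MYC/Otx2, all higher, where 13.5%, 12.2% and 13.3% of all genes were called in either direction, so calls over all genes also depended on the library left out. The part of the other cells in these differences was not tested. The 6 comparisons share their libraries, so a member called in several of them is not repeated evidence.

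The members' median log2 fold change was -0.48 in N1ICD over MYC/Otx2, with 0.14 for all tested genes, and -0.13 in S100b-cell over MYC/Otx2, with 0.17 for all. It was -0.41 in N1ICD over S100b-cell, with -0.06 for all genes. Over MYC/Gfi1 it was 0.40 in N1ICD, 0.81 in S100b-cell and 0.82 in MYC/Otx2, with -0.01, 0.01 and -0.14 for all genes. In N1ICD, every library lay above every MYC/Otx2 library for 7 members and below for 17, where 20.7% and 20.8% of all genes did so. In S100b-cell the counts against MYC/Otx2 were 11 above and 11 below, where the background was 28.6% and 21.8%. N1ICD against S100b-cell gave 0 above and 6 below, where it was 11% and 15.1%. Against both MYC/Gfi1 libraries, N1ICD had 12 members above and 2 below (background 18.2% and 19.8%), and S100b-cell 19 above and 0 below (22.4% and 18.9%). In MYC/Otx2, every library lay above both MYC/Gfi1 libraries for 29 members and below for 1, where 20.1% and 23.6% of all genes did so. The mitochondrial share was higher in every library of the conditional models than in every library of the constitutive ones. With mitochondrially encoded genes left out, 9 members were called in N1ICD over MYC/Otx2 and 5 in S100b-cell over MYC/Otx2, where 20.9% and 17.4% of all genes were called in either direction. In all, edgeR called 14 of the 41 tested members in at least 1 comparison and 27 in none, and it called 34.1% of all tested genes in at least 1, so the members' share was near the background. Of the 27 members, DESeq2 or limma-voom called 8 in at least 1 comparison (29.6%), as they did 33.2% of all genes that edgeR did not call. A call with no tool named is one of edgeR, and where a call was lost, the settings named are those of scaling, filter, tool, groups fitted and libraries left out. Single calls were followed through these settings only for the members. Whether the calls of other genes named below hold in them was not checked. Calls made by DESeq2 or limma-voom but not by edgeR are not all named.

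**Figure D2:**
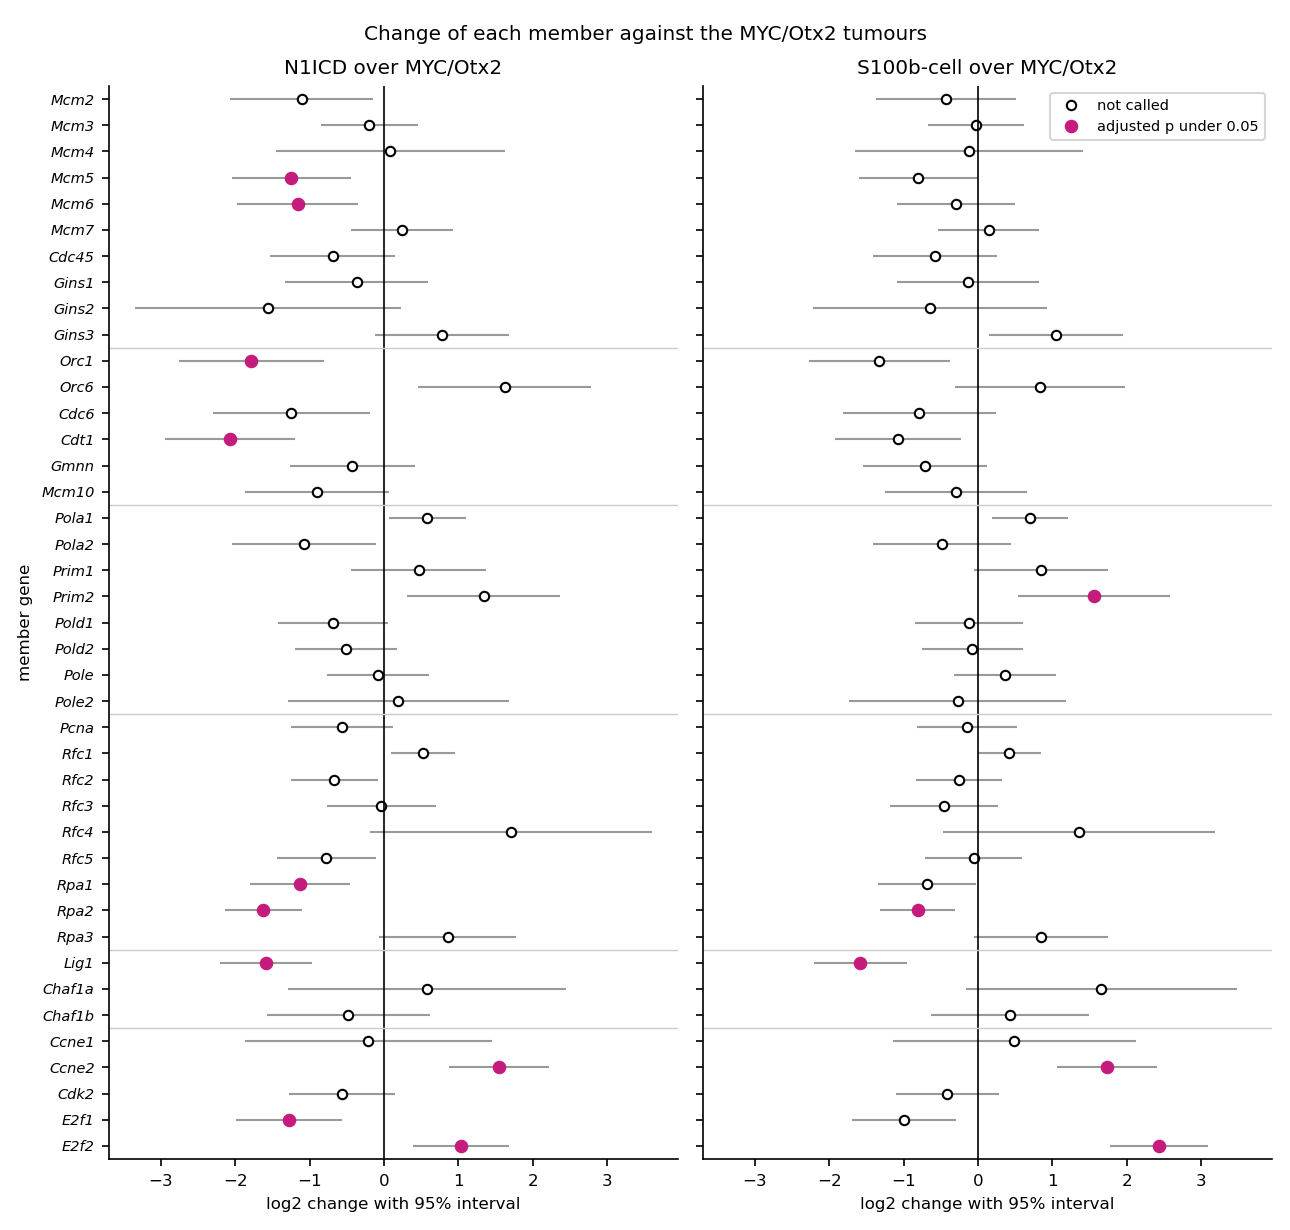
Log2 fold change (x axis) of each of the 41 tested members (y axis, grouped by role) in N1ICD over MYC/Otx2 (left) and S100b-cell over MYC/Otx2 (right), with 95% intervals from edgeR. Filled points have an adjusted p under 0.05: 2 above and 8 below 0 on the left, 3 above and 2 below on the right.

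The promoters of the members called in the most comparisons show what the start of such genes looks like. RefSeq windows of 300 bases, 250 before and 50 after a start site (GRCm38.p6), matched 34 of the 42 members by symbol, with 40 windows. Ccne2, Prim2, Gins1, Gins2, Mcm4, Gmnn, Pole and Rfc2 have no window. The 4 members below were called in 2 or 3 comparisons, with ties going to the smaller p. Capitals mark matches on either strand to 4 motifs: the E2F sites TTTCCCGC and TTTGGCGC, the MYC/MAX E-box CACGTG, and the NF-Y box CCAAT. Where a gene has several windows, that with the most E2F sites is shown, with ties going to the most E-boxes and then the most CCAAT boxes.

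E2f2, chr4:136172024-136172323, plus strand: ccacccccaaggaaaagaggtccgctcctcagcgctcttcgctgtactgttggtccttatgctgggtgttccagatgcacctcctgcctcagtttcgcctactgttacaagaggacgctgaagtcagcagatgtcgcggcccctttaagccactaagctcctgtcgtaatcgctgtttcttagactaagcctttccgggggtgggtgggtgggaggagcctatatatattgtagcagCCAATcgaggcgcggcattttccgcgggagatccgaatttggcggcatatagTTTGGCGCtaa
Lig1, chr7:13276925-13277224, plus strand: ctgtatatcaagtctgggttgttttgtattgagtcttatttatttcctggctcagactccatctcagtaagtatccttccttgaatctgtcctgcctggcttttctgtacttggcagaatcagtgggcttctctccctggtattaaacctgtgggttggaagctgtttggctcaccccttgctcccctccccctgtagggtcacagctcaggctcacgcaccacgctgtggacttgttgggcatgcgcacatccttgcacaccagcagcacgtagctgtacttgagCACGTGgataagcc
Pola1, chrX:93632106-93632405, minus strand: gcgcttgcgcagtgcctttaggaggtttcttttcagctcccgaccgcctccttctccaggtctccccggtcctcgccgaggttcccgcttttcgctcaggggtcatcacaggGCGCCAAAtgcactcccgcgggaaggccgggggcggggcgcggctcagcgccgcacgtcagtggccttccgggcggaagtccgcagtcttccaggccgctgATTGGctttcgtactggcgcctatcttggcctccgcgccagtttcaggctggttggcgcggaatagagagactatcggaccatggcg
Rpa2, chr4:132768110-132768409, plus strand: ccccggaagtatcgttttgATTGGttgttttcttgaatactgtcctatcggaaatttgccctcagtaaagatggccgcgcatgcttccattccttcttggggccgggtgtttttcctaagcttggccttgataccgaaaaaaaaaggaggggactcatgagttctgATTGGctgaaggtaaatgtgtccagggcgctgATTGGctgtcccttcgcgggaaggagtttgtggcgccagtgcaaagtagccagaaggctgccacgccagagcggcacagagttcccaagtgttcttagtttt

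The E2f2 window held 1 E2F site and 1 CCAAT box, the Pola1 window 1 of each, the Rpa2 window 3 CCAAT boxes and the Lig1 window 1 E-box. Lig1 has 3 windows, all with 0 E2F sites, so that shown was picked by its E-box, and the others held none of the motifs. In the Pola1 and Rpa2 windows the matches are on the opposite strand and read GCGCCAAA and ATTGG. Over the member windows, 13 of 40 (32.5%) held an E2F site, against 1.56% of 32851 windows of all genes in the RefSeq table. CCAAT was in 60% of member windows and 37.4% of all windows, and CACGTG in 15.0% and 7.15%. A match is a description of the letters, not evidence of binding.

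Origin licensing genes were lower in N1ICD tumours than in MYC/Otx2 tumours for Cdt1 and Orc1, and the geminin, Cdc6, Orc6 and Mcm10 transcripts were not called by edgeR in any comparison. Cdt1 loads the Mcm rings onto origins and is destroyed once S phase starts. Cdt1 had 61.3, 75.6 and 176 CPM in N1ICD, 246, 229.8 and 148 CPM in S100b-cell, 446, 409 and 463 CPM in MYC/Otx2, and 190.4 and 123 CPM in MYC/Gfi1 tumours. Every N1ICD library and every S100b-cell library lay below the 3 MYC/Otx2 libraries. Cdt1 had a log2 fold change of -2.07 ± 0.39 (SE, edgeR Benjamini-Hochberg adjusted p = 0.00684) in N1ICD over MYC/Otx2, a call kept in all 15 alternatives. In S100b-cell over MYC/Otx2 it had a log2 fold change of -1.08 ± 0.38 (SE, edgeR Benjamini-Hochberg adjusted p = 0.0736), which missed the threshold. DESeq2, with an adjusted p of 0.0264, and limma-voom, with 0.0256, called it there. Both also called Cdt1 higher in MYC/Otx2 over MYC/Gfi1, with 0.0155 and 0.0308, where edgeR did not.

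Orc1 had 13.3, 18.8 and 30.4 CPM in N1ICD, 41.5, 21.0 and 23.5 CPM in S100b-cell, 89.7, 64.6 and 61.5 CPM in MYC/Otx2, and 37.2 and 15.5 CPM in MYC/Gfi1 tumours. Orc1, the largest subunit of the origin recognition complex, was thus higher in each MYC/Otx2 library than in any other library. It had a log2 fold change of -1.79 ± 0.44 (SE, edgeR Benjamini-Hochberg adjusted p = 0.0194) in N1ICD over MYC/Otx2. That call was lost without N1ICD replicate 1 or 2, or MYC/Otx2 replicate 1, where the adjusted p was 0.0511 to 0.0666. In S100b-cell over MYC/Otx2, edgeR did not call Orc1, while DESeq2 and limma-voom called it lower with adjusted p of 0.0139 and 0.0183.

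Cdc6, which works with Cdt1 to load the rings, had group means of 22.6 ± 7.68 CPM in N1ICD, 31.0 ± 14.3 CPM in S100b-cell, 53.6 ± 12.5 CPM in MYC/Otx2 and 26.1 ± 16.6 CPM in MYC/Gfi1 tumours (SD). It was not called by edgeR, with a log2 fold change of -1.24 ± 0.48 (SE, edgeR Benjamini-Hochberg adjusted p = 0.0851) in N1ICD over MYC/Otx2, where DESeq2 called it with an adjusted p of 0.0494 and limma-voom did not. Orc6, the smallest subunit of the origin recognition complex, had its highest mean in N1ICD. Orc6 had 6.86, 20.9 and 25.2 CPM in N1ICD, 10.4, 9.75 and 10.6 CPM in S100b-cell, 5.79, 5.73 and 5.66 CPM in MYC/Otx2, and 6.53 and 2.32 CPM in MYC/Gfi1 tumours. The N1ICD libraries lay above the MYC/Otx2 ones, and Orc6 had a log2 fold change of 1.62 ± 0.53 (SE, edgeR Benjamini-Hochberg adjusted p = 0.0512) in N1ICD over MYC/Otx2, which missed the threshold. DESeq2 called Orc6 higher in N1ICD, with an adjusted p of 0.00933 over MYC/Otx2 and 0.0081 over MYC/Gfi1, and limma-voom called neither. The summed licensing genes were 142, 202 and 345 CPM in N1ICD, 451, 365 and 251 CPM in S100b-cell, 719.5, 628 and 678.5 CPM in MYC/Otx2, and 335 and 187 CPM in MYC/Gfi1 tumours. MYC/Otx2 stood above the other 3 groups without overlap in this sum, of which Cdt1 was the largest part there, with a mean of 439 CPM.

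Helicase genes differed for Mcm5 and Mcm6, which were lower in N1ICD than in MYC/Otx2 tumours, while Mcm2, Mcm3, Mcm4 and Mcm7 were not called by edgeR in any comparison. Mcm5 is a subunit of the ring at the gate through which DNA enters. Mcm5 had 142, 262 and 365 CPM in N1ICD, 493, 302 and 252 CPM in S100b-cell, 774, 523 and 526 CPM in MYC/Otx2, and 277 and 309.7 CPM in MYC/Gfi1 tumours. All N1ICD libraries lay below all MYC/Otx2 libraries, with 1 S100b-cell library at 493 CPM close under the lowest MYC/Otx2 library. Mcm5 had a log2 fold change of -1.24 ± 0.36 (SE, edgeR Benjamini-Hochberg adjusted p = 0.0353) in N1ICD over MYC/Otx2. Mcm5 was not called without N1ICD replicate 1 or 2, or MYC/Otx2 replicate 1, 2 or 3, where the adjusted p was 0.0627 to 0.114.

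Mcm6 had 77.6, 86.8 and 101 CPM in N1ICD, 214, 153 and 117 CPM in S100b-cell, 181, 202 and 211 CPM in MYC/Otx2, and 148 and 50.3 CPM in MYC/Gfi1 tumours. Mcm6 is another subunit of the ring, and its N1ICD libraries lay below the MYC/Otx2 ones while the MYC/Gfi1 libraries spread widely. It had a log2 fold change of -1.16 ± 0.36 (SE, edgeR Benjamini-Hochberg adjusted p = 0.0458) in N1ICD over MYC/Otx2. That call was lost without N1ICD replicate 1, 2 or 3, or MYC/Otx2 replicate 1, 2 or 3, with upper-quartile scaling, with limma-voom or with mitochondrially encoded genes left out, where the adjusted p was 0.0506 to 0.111.

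The rings' other subunits ranged widely between libraries. Mcm4 had 78.9 CPM in MYC/Gfi1 replicate 1 and 5.52 CPM in replicate 2. Mcm7 had a log2 fold change of 0.24 ± 0.31 (SE, edgeR Benjamini-Hochberg adjusted p = 0.601) in N1ICD over MYC/Otx2, with a 95% interval of -0.44 to 0.93. Mcm3 had a log2 fold change of 1.25 ± 0.34 (SE, edgeR Benjamini-Hochberg adjusted p = 0.0575) in MYC/Otx2 over MYC/Gfi1, where DESeq2 and limma-voom called it higher with adjusted p of 0.00818 and 0.0352. Both also called Mcm3 higher in S100b-cell over MYC/Gfi1, with 0.0154 and 0.0358, and DESeq2 called it in N1ICD over MYC/Gfi1, with 0.0245. Cdc45, Gins1 and Gins3, parts of the active helicase, were not called in any comparison by any of the 3 tools.

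Gins2 was called higher in MYC/Otx2 than in MYC/Gfi1 tumours, on very few counts. Gins2 had 1.29, 0.697 and 0.406 CPM in N1ICD, 1.94, 1.24 and 1.33 CPM in S100b-cell, 2.83, 1.49 and 2.77 CPM in MYC/Otx2, and 0.117 and 0 CPM in MYC/Gfi1 tumours. The MYC/Otx2 libraries held 56 counts together and the MYC/Gfi1 libraries 1. The ratio of CPM was 36.4, with an exact 95% counting interval of 6.28 to 1465 that covers counting error only, and the edgeR Benjamini-Hochberg adjusted p was 0.0385. Gins2 was not called without MYC/Otx2 replicate 1, 2 or 3, or MYC/Gfi1 replicate 2, with no low-count filter or in a fit of the 2 groups alone, where the adjusted p was 0.0593 to 0.126. DESeq2 and limma-voom called Gins2 higher in S100b-cell over MYC/Gfi1, with adjusted p of 0.0377 and 0.038, where edgeR did not. The last 500 bases of Gins2 lie under an exon of Gse1 on the other strand. The strand setting of the counting is not given, so how this overlap bears on the Gins2 counts is not known.

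Polymerase genes were higher outside the MYC/Gfi1 group for Pola1, the catalytic subunit of the polymerase that starts each new strand. Pola1 had 100.3, 149.6 and 123 CPM in N1ICD, 159, 143 and 99.7 CPM in S100b-cell, 86.3, 73.4 and 88.4 CPM in MYC/Otx2, and 34.6 and 34.9 CPM in MYC/Gfi1 tumours. Both MYC/Gfi1 libraries lay below every other library. Pola1 had a log2 fold change of 1.84 ± 0.27 (SE, edgeR Benjamini-Hochberg adjusted p = 0.00644) in N1ICD over MYC/Gfi1, a log2 fold change of 1.95 ± 0.28 (SE, edgeR Benjamini-Hochberg adjusted p = 0.0131) in S100b-cell over MYC/Gfi1, and a log2 fold change of 1.25 ± 0.27 (SE, edgeR Benjamini-Hochberg adjusted p = 0.0331) in MYC/Otx2 over MYC/Gfi1. In N1ICD over MYC/Otx2 it had a log2 fold change of 0.59 ± 0.23 (SE, edgeR Benjamini-Hochberg adjusted p = 0.0924), which missed the threshold. DESeq2 and limma-voom called Pola1 higher in S100b-cell over MYC/Otx2, with adjusted p of 0.0304 and 0.0486, where edgeR did not.

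The Pola1 call of N1ICD over MYC/Gfi1 was kept without either MYC/Gfi1 library and lost in a fit of the 2 groups alone, where the adjusted p was 0.107. In S100b-cell over MYC/Gfi1, the call was lost without S100b-cell replicate 1, or MYC/Gfi1 replicate 2 or in a fit of the 2 groups alone, where the adjusted p was 0.0526 to 0.134. In MYC/Otx2 over MYC/Gfi1, the call was lost without MYC/Otx2 replicate 1, 2 or 3, or MYC/Gfi1 replicate 2 or in a fit of the 2 groups alone, where the adjusted p was 0.0593 to 0.104.

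Prim2, the large subunit of primase, which lays the RNA primers, was higher in S100b-cell than in MYC/Otx2 tumours. Prim2 had 9.86, 18.5 and 20.3 CPM in N1ICD, 23.0, 17.3 and 16.3 CPM in S100b-cell, 4.52, 4.36 and 10.3 CPM in MYC/Otx2, and 7.11 and 12.6 CPM in MYC/Gfi1 tumours. The S100b-cell libraries lay above all MYC/Otx2 libraries, and N1ICD replicate 1 lay inside the MYC/Otx2 range. Prim2 had a log2 fold change of 1.56 ± 0.46 (SE, edgeR Benjamini-Hochberg adjusted p = 0.042) in S100b-cell over MYC/Otx2. That call was lost without S100b-cell replicate 1, 2 or 3, or MYC/Otx2 replicate 1 or 2 or with no low-count filter, where the adjusted p was 0.0589 to 0.131.

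The other polymerase members were Pola2, Prim1, Pold1, Pold2, Pole and Pole2, none of them called by edgeR. Pold2, the second subunit of the lagging-strand polymerase, had group means of 61.4 ± 29.6 CPM in N1ICD, 83.1 ± 15.1 CPM in S100b-cell, 87.6 ± 5.68 CPM in MYC/Otx2 and 66.6 ± 0.11 CPM in MYC/Gfi1 tumours (SD). Pole, the catalytic subunit of the leading-strand polymerase, had a log2 fold change of 1.44 ± 0.36 (SE, edgeR Benjamini-Hochberg adjusted p = 0.0526) in S100b-cell over MYC/Gfi1, where DESeq2 and limma-voom called it higher with adjusted p of 0.00479 and 0.027. DESeq2 also called Pole higher in N1ICD over MYC/Gfi1, with 0.0493, and in MYC/Otx2 over MYC/Gfi1, with 0.0371. Pola2, the partner of Pola1, had a log2 fold change of -1.07 ± 0.43 (SE, edgeR Benjamini-Hochberg adjusted p = 0.0999) in N1ICD over MYC/Otx2, which missed the threshold. In MYC/Otx2 over MYC/Gfi1, DESeq2 and limma-voom called Pola2 higher with adjusted p of 0.00532 and 0.0383.

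Among the clamp, loader and single-strand binding genes, Rpa2 and Rpa1 were lower in N1ICD than in MYC/Otx2 tumours, and Rfc1 was lowest in MYC/Gfi1. Rpa1 and Rpa2 are subunits of replication protein A, which coats the unwound strands. Rpa2 had 90.0, 79.5 and 102 CPM in N1ICD, 202, 125 and 148 CPM in S100b-cell, 336, 256 and 242 CPM in MYC/Otx2, and 138 and 133 CPM in MYC/Gfi1 tumours. The MYC/Otx2 libraries lay above all others, and the N1ICD libraries below all others. Rpa2 had a log2 fold change of -1.62 ± 0.23 (SE, edgeR Benjamini-Hochberg adjusted p = 0.00208) in N1ICD over MYC/Otx2, a call kept in all 15 alternatives. It had a log2 fold change of -0.81 ± 0.23 (SE, edgeR Benjamini-Hochberg adjusted p = 0.0346) in S100b-cell over MYC/Otx2 and a log2 fold change of 1.04 ± 0.26 (SE, edgeR Benjamini-Hochberg adjusted p = 0.0481) in MYC/Otx2 over MYC/Gfi1.

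For Rpa2 in S100b-cell over MYC/Otx2, the call was lost without S100b-cell replicate 2 or 3, or MYC/Otx2 replicate 1, 2 or 3, with upper-quartile scaling or with no low-count filter, where the adjusted p was 0.0505 to 0.117. In MYC/Otx2 over MYC/Gfi1, the call was lost without MYC/Otx2 replicate 1, 2 or 3, or MYC/Gfi1 replicate 1 or 2, with RLE scaling, with no low-count filter or in a fit of the 2 groups alone, where the adjusted p was 0.0545 to 0.149. In N1ICD over S100b-cell, edgeR did not call Rpa2, which had a log2 fold change of -0.81 ± 0.23 (SE, edgeR Benjamini-Hochberg adjusted p = 0.112). DESeq2 called it with a Benjamini-Hochberg adjusted p of 0.0488 and limma-voom did not.

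Rpa1 had 40.7, 54.4 and 90.1 CPM in N1ICD, 104, 83.9 and 63.3 CPM in S100b-cell, 154, 119 and 129.8 CPM in MYC/Otx2, and 72.6 and 73.5 CPM in MYC/Gfi1 tumours. Its 3 N1ICD libraries lay below the 3 MYC/Otx2 libraries. Rpa1 had a log2 fold change of -1.12 ± 0.30 (SE, edgeR Benjamini-Hochberg adjusted p = 0.0272) in N1ICD over MYC/Otx2. Rpa1 was not called without N1ICD replicate 1 or 2, or MYC/Otx2 replicate 1, 2 or 3, where the adjusted p was 0.0529 to 0.086. The third subunit, Rpa3, had its highest mean in N1ICD, at 14.1 ± 3.37 CPM against 7.78 ± 1.51 CPM in MYC/Otx2 tumours (SD, n = 3 each). It was not called by edgeR, while DESeq2 called it higher over MYC/Gfi1 in N1ICD, with an adjusted p of 0.0146, and in S100b-cell tumours, with 0.0229.

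**Figure D3:**
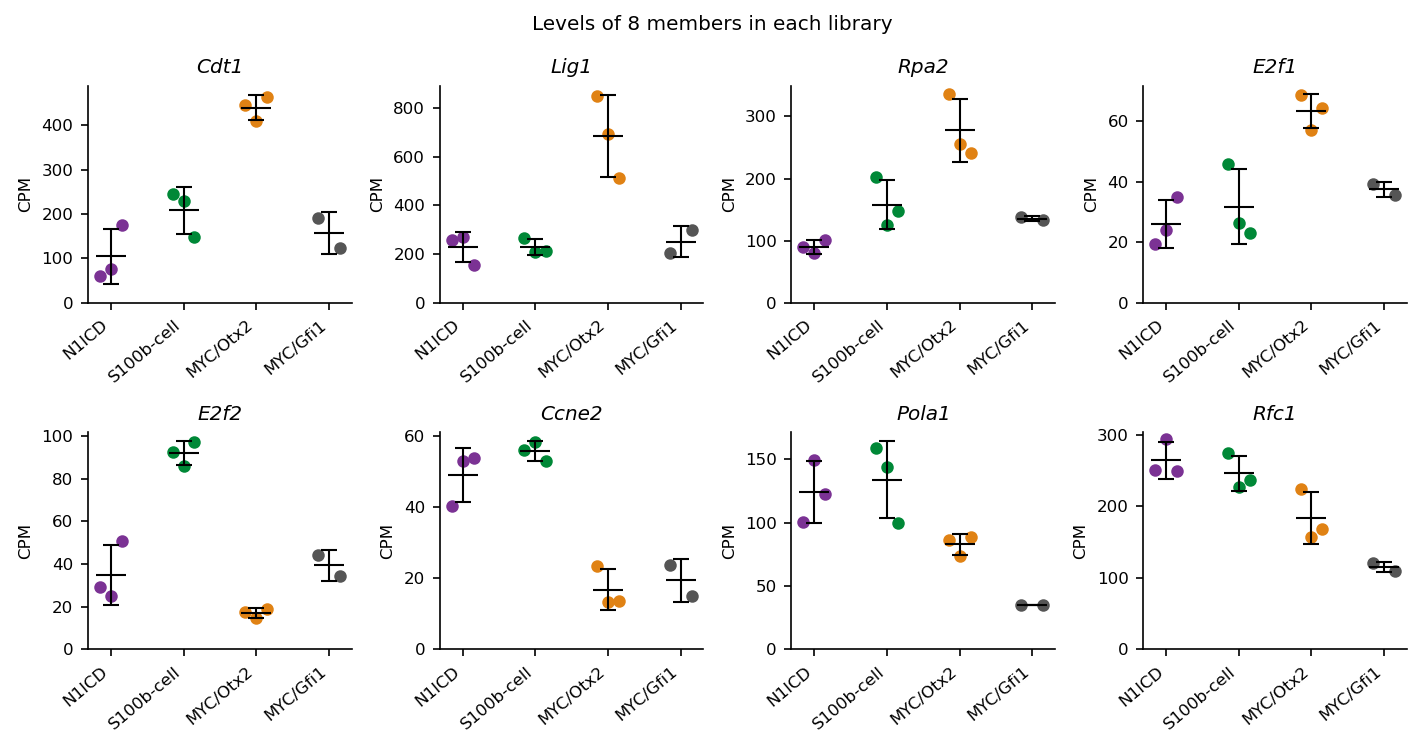
CPM (y axis, from 0) of 8 members in each library of the 4 groups (x axis), with the group mean and SD as black bars. Cdt1, Lig1, Rpa2 and E2f1 are highest in MYC/Otx2, E2f2 is lowest there, and Pola1 and Rfc1 are lowest in MYC/Gfi1. Ccne2 is lower in both constitutive groups, which overlap, than in both conditional ones.

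Rfc1 is the large subunit of the loader that places the Pcna ring on DNA. Rfc1 had 249.9, 294 and 249 CPM in N1ICD, 274, 227 and 236 CPM in S100b-cell, 224, 157 and 169 CPM in MYC/Otx2, and 120.1 and 109.5 CPM in MYC/Gfi1 tumours. Both MYC/Gfi1 libraries lay below every other library, and the N1ICD and S100b-cell libraries above all MYC/Otx2 ones. Rfc1 had a log2 fold change of 1.20 ± 0.22 (SE, edgeR Benjamini-Hochberg adjusted p = 0.0125) in N1ICD over MYC/Gfi1 and a log2 fold change of 1.10 ± 0.22 (SE, edgeR Benjamini-Hochberg adjusted p = 0.0295) in S100b-cell over MYC/Gfi1. For N1ICD over MYC/Gfi1, the call was lost without MYC/Gfi1 replicate 2 or in a fit of the 2 groups alone, where the adjusted p was 0.052 to 0.125. For S100b-cell over MYC/Gfi1, the call was lost without S100b-cell replicate 1, 2 or 3, or MYC/Gfi1 replicate 2 or in a fit of the 2 groups alone, where the adjusted p was 0.0643 to 0.134.

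Pcna, the sliding clamp and a common mark of S phase, was not called in any comparison. Pcna had 49.7, 80.5 and 97.8 CPM in N1ICD, 128, 96.3 and 79.5 CPM in S100b-cell, 110.0, 98.2 and 129 CPM in MYC/Otx2, and 82.9 and 49.8 CPM in MYC/Gfi1 tumours. Its N1ICD and MYC/Otx2 libraries did not overlap, though the highest N1ICD value was 97.8 CPM and the lowest MYC/Otx2 value 98.2 CPM. Pcna had a log2 fold change of -0.56 ± 0.31 (SE, edgeR Benjamini-Hochberg adjusted p = 0.208) in N1ICD over MYC/Otx2, with a 95% interval of -1.24 to 0.12. Rfc2, Rfc3, Rfc4 and Rfc5, the small loader subunits, were called in no comparison by edgeR. DESeq2 called Rfc3 higher over MYC/Gfi1 in N1ICD, with an adjusted p of 0.0168, and in MYC/Otx2 tumours, with 0.016.

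Lig1, the ligase that joins Okazaki fragments on the lagging strand, was lower in both conditional models than in MYC/Otx2 tumours. Lig1 had 258, 269 and 157 CPM in N1ICD, 265, 209.7 and 212 CPM in S100b-cell, 850.1, 693 and 510.4 CPM in MYC/Otx2, and 205 and 297 CPM in MYC/Gfi1 tumours. The 3 MYC/Otx2 libraries lay above the other 8, which overlapped each other. Lig1 had a log2 fold change of -1.59 ± 0.28 (SE, edgeR Benjamini-Hochberg adjusted p = 0.00502) in N1ICD over MYC/Otx2 and a log2 fold change of -1.58 ± 0.28 (SE, edgeR Benjamini-Hochberg adjusted p = 0.00643) in S100b-cell over MYC/Otx2, both kept in all 15 alternatives. It had a log2 fold change of 1.45 ± 0.32 (SE, edgeR Benjamini-Hochberg adjusted p = 0.0357) in MYC/Otx2 over MYC/Gfi1. In MYC/Otx2 over MYC/Gfi1, the call was lost without MYC/Otx2 replicate 1, 2 or 3, or MYC/Gfi1 replicate 1 or 2 or in a fit of the 2 groups alone, where the adjusted p was 0.0669 to 0.104. In N1ICD over S100b-cell it had a log2 fold change of -0.01 ± 0.27 (SE, edgeR Benjamini-Hochberg adjusted p = 0.996), with a 95% interval of -0.61 to 0.60.

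Fen1, the flap nuclease that trims the fragments before Lig1 joins them, had 1 count over all 11 libraries and was not tested. An exon of Gm10143 covers 443 of its last 500 bases on the other strand. The 4 members with the fewest counts, Fen1 with 1, Gins2 with 128, Rfc4 with 186 and Chaf1a with 424, all have such an overlap, and the 35 members without one had at least 702. The cause was not tested. Mcm7, Rfc5 and Ccne2 are the other members with an overlap. Chaf1a and Chaf1b, subunits of the factor that places histones on new DNA, were called in no comparison by edgeR. DESeq2 called Chaf1a higher in N1ICD over MYC/Gfi1, with an adjusted p of 0.0222, and in S100b-cell over MYC/Gfi1, with 0.000848. With limma-voom it was called higher in S100b-cell over MYC/Gfi1, with 0.0261, and over MYC/Otx2, with 0.047. Chaf1b had 9.86, 9.41 and 10.5 CPM in N1ICD tumours, 28.7, 13.4 and 13.9 CPM in S100b-cell tumours, 15.3, 7.10 and 19.2 CPM in MYC/Otx2 tumours, and 10.8 and 4.79 CPM in MYC/Gfi1 tumours.

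In the G1/S switch, E2f2 and Ccne2 had their lowest mean in the MYC/Otx2 tumours, while E2f1 had its highest mean there. E2f1 and E2f2 are activating E2F factors of the same family. E2f2 had 29.2, 24.8 and 50.7 CPM in N1ICD, 92.5, 85.9 and 97.1 CPM in S100b-cell, 17.4, 14.6 and 19.0 CPM in MYC/Otx2, and 44.4 and 34.1 CPM in MYC/Gfi1 tumours. The S100b-cell libraries stood above all others and the MYC/Otx2 libraries below all others. E2f2 had a log2 fold change of 2.43 ± 0.30 (SE, edgeR Benjamini-Hochberg adjusted p = 0.00157) in S100b-cell over MYC/Otx2, kept in all 15 alternatives, and a log2 fold change of 1.04 ± 0.29 (SE, edgeR Benjamini-Hochberg adjusted p = 0.0308) in N1ICD over MYC/Otx2. For N1ICD over MYC/Otx2, the call was lost without N1ICD replicate 3, or MYC/Otx2 replicate 1, 2 or 3, with no low-count filter, with limma-voom or in a fit of the 2 groups alone, where the adjusted p was 0.0558 to 0.0984.

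E2f2 was also the member nearest to a call between the 2 conditional models, lower in N1ICD with a log2 fold change of -1.40 ± 0.29 (SE, edgeR Benjamini-Hochberg adjusted p = 0.052) in N1ICD over S100b-cell. DESeq2 gave it a Benjamini-Hochberg adjusted p of 0.000538 and limma-voom 0.0415, both under 0.05. Against MYC/Gfi1, edgeR did not call E2f2. DESeq2 and limma-voom called it higher in S100b-cell over MYC/Gfi1, with adjusted p of 0.00781 and 0.0183. They called it lower in MYC/Otx2 over MYC/Gfi1, with 0.00337 and 0.0338.

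E2f1 had 19.3, 24.1 and 34.9 CPM in N1ICD, 45.9, 26.3 and 23.1 CPM in S100b-cell, 68.5, 57.2 and 64.4 CPM in MYC/Otx2, and 39.3 and 35.7 CPM in MYC/Gfi1 tumours. All N1ICD libraries and all S100b-cell libraries lay below the MYC/Otx2 libraries. E2f1 had a log2 fold change of -1.28 ± 0.32 (SE, edgeR Benjamini-Hochberg adjusted p = 0.0208) in N1ICD over MYC/Otx2. That call was lost without N1ICD replicate 1 or 2, or MYC/Otx2 replicate 1 or 3, where the adjusted p was 0.0534 to 0.0638. In S100b-cell over MYC/Otx2 it had a log2 fold change of -0.99 ± 0.31 (SE, edgeR Benjamini-Hochberg adjusted p = 0.0528), which missed the threshold, while DESeq2 and limma-voom called it lower with adjusted p of 0.0114 and 0.0188.

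Ccne1 and Ccne2 encode the cyclins E that activate Cdk2. Ccne2 had 40.3, 53.0 and 54.0 CPM in N1ICD, 56.3, 58.5 and 53.0 CPM in S100b-cell, 23.6, 13.2 and 13.6 CPM in MYC/Otx2, and 23.7 and 15.1 CPM in MYC/Gfi1 tumours. The 6 libraries of the conditional models lay above the 5 of the constitutive ones. Ccne2 had a log2 fold change of 1.55 ± 0.30 (SE, edgeR Benjamini-Hochberg adjusted p = 0.00754) in N1ICD over MYC/Otx2 and a log2 fold change of 1.73 ± 0.30 (SE, edgeR Benjamini-Hochberg adjusted p = 0.00601) in S100b-cell over MYC/Otx2, both kept in all 15 alternatives. It had a log2 fold change of 1.34 ± 0.34 (SE, edgeR Benjamini-Hochberg adjusted p = 0.0352) in N1ICD over MYC/Gfi1 and a log2 fold change of 1.53 ± 0.35 (SE, edgeR Benjamini-Hochberg adjusted p = 0.0388) in S100b-cell over MYC/Gfi1.

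For Ccne2 in N1ICD over MYC/Gfi1, the call was lost without N1ICD replicate 2 or 3, or MYC/Gfi1 replicate 2, with no low-count filter or in a fit of the 2 groups alone, where the adjusted p was 0.0664 to 0.166. In S100b-cell over MYC/Gfi1, the call was lost without S100b-cell replicate 1, 2 or 3, or MYC/Gfi1 replicate 2, with no low-count filter or in a fit of the 2 groups alone, where the adjusted p was 0.0541 to 0.177. An exon of Ints8 on the other strand covers 304 of the last 500 bases of Ccne2. With the strand setting not given, how this overlap bears on the Ccne2 counts is not known. Over all libraries Ints8 had 298 counts and Ccne2 3471.

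Ccne1 was called in no comparison. Ccne1 had 3.00, 16.7 and 36.5 CPM in N1ICD, 48.3, 26.1 and 17.1 CPM in S100b-cell, 21.9, 22.2 and 21.1 CPM in MYC/Otx2, and 22.4 and 5.95 CPM in MYC/Gfi1 tumours. It ranged from 3.00 to 36.5 CPM within N1ICD, and had a log2 fold change of -0.21 ± 0.75 (SE, edgeR Benjamini-Hochberg adjusted p = 0.864) in N1ICD over MYC/Otx2 with a 95% interval of -1.87 to 1.45. Cdk2, their kinase, was called in no comparison and had 9.58 ± 0.799 CPM in N1ICD, 10.6 ± 2.24 CPM in S100b-cell, 14.1 ± 1.97 CPM in MYC/Otx2 and 8.09 ± 0.887 CPM in MYC/Gfi1 tumours (SD).

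The ratio of E2f2 to E2f1 within a library, chosen after the values were seen and given with no test, was 1.51, 1.03 and 1.45 in N1ICD tumours, 2.01, 3.27 and 4.20 in S100b-cell tumours, 0.254, 0.255 and 0.294 in MYC/Otx2 tumours, and 1.13 and 0.955 in MYC/Gfi1 tumours. It did not overlap between S100b-cell and any other group, nor between MYC/Otx2 and any other group. The ratio of Ccne2 to Ccne1 was 13.4, 3.17 and 1.48 in N1ICD tumours, 1.16, 2.24 and 3.10 in S100b-cell tumours, 1.08, 0.596 and 0.645 in MYC/Otx2 tumours, and 1.06 and 2.54 in MYC/Gfi1 tumours. The MYC/Otx2 ratios lay below those of both conditional groups.

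**Figure D4:**
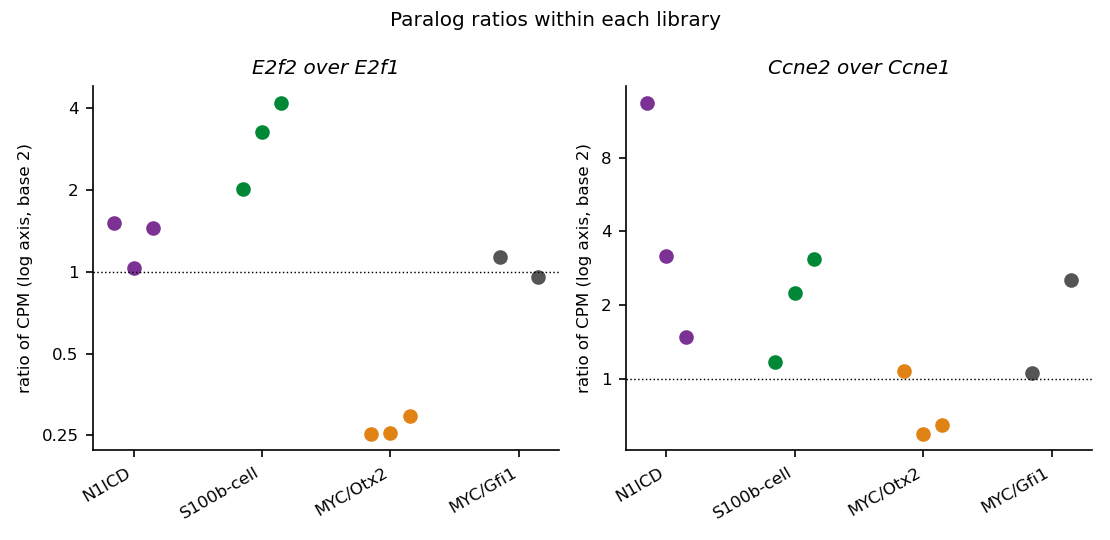
Ratio of CPM of E2f2 to E2f1 (left) and Ccne2 to Ccne1 (right) in each library (points) of the 4 groups (x axis), on a log axis of base 2 with a dotted line at 1. E2f2 per E2f1 is 0.254 to 0.294 in the MYC/Otx2 libraries and 0.955 or more in all others.

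Other genes of replication and its supplies, 46 symbols of which 43 were tested, held calls in both directions against MYC/Otx2. In N1ICD over MYC/Otx2, 2 were called higher and 9 lower, where 12% of all tested genes were called higher and 9.76% lower. In S100b-cell over MYC/Otx2, 2 were higher and 4 lower, where the background was 10% and 7.89%. Against MYC/Gfi1, 4 were higher in N1ICD, 4 in S100b-cell and 5 in MYC/Otx2, and 0 lower in each. The background there was 5.47%, 2.34% and 2.43% of all genes called higher, and 6.05%, 2.01% and 3.03% called lower. Between N1ICD and S100b-cell, 0 were called with edgeR, where 0.808% of all genes were called higher and 0.407% lower. There, 8 had an unadjusted p under 0.05, as did 18.7% of all genes. Ssrp1 and Supt16 encode the subunits of FACT, which moves histones aside for the fork, and they differed in sign in N1ICD over MYC/Otx2. Supt16 had 165 ± 5.91 CPM in N1ICD and 49.7 ± 8.33 CPM in MYC/Otx2 tumours (SD, n = 3 each), a log2 fold change of 1.73 ± 0.23 (SE, edgeR Benjamini-Hochberg adjusted p = 0.00148). Ssrp1 had 339.7 ± 61.8 CPM in N1ICD and 809.6 ± 61.4 CPM in MYC/Otx2 tumours (SD, n = 3 each), a log2 fold change of -1.25 ± 0.20 (SE, edgeR Benjamini-Hochberg adjusted p = 0.0034). Dnmt1, which copies DNA methylation onto the new strand, had 83.4 ± 13.5 CPM in N1ICD and 226 ± 46.9 CPM in MYC/Otx2 tumours (SD, n = 3 each), a log2 fold change of -1.44 ± 0.22 (SE, edgeR Benjamini-Hochberg adjusted p = 0.00267), and Pold3, an accessory polymerase subunit, had a log2 fold change of -1.28 ± 0.27 (SE, edgeR Benjamini-Hochberg adjusted p = 0.0106). Supt16 had a log2 fold change of 1.25 ± 0.22 (SE, edgeR Benjamini-Hochberg adjusted p = 0.0065) and Ssrp1 had a log2 fold change of -0.76 ± 0.20 (SE, edgeR Benjamini-Hochberg adjusted p = 0.0285) in S100b-cell over MYC/Otx2. Dnmt1 had a log2 fold change of -1.61 ± 0.22 (SE, edgeR Benjamini-Hochberg adjusted p = 0.00219) and Pold3 had a log2 fold change of -1.13 ± 0.27 (SE, edgeR Benjamini-Hochberg adjusted p = 0.0192) there.

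Over MYC/Gfi1, Supt16 was called higher in N1ICD with a log2 fold change of 2.42 ± 0.27 (SE, edgeR Benjamini-Hochberg adjusted p = 0.00263) and in S100b-cell with a log2 fold change of 1.94 ± 0.26 (SE, edgeR Benjamini-Hochberg adjusted p = 0.0123). Topbp1, a scaffold that helps origins fire, had a log2 fold change of 1.44 ± 0.41 (SE, edgeR Benjamini-Hochberg adjusted p = 0.0476) and Top1, a topoisomerase that relaxes twisted DNA, a log2 fold change of 1.11 ± 0.25 (SE, edgeR Benjamini-Hochberg adjusted p = 0.0241), both in N1ICD over MYC/Gfi1. Dbf4, the activating partner of the Cdc7 kinase, had a log2 fold change of 1.62 ± 0.37 (SE, edgeR Benjamini-Hochberg adjusted p = 0.0406) in S100b-cell over MYC/Gfi1. In MYC/Otx2 over MYC/Gfi1, Pold3 had a log2 fold change of 2.10 ± 0.32 (SE, edgeR Benjamini-Hochberg adjusted p = 0.0136), Ssrp1 a log2 fold change of 1.42 ± 0.23 (SE, edgeR Benjamini-Hochberg adjusted p = 0.0149) and Dnmt1 a log2 fold change of 1.05 ± 0.25 (SE, edgeR Benjamini-Hochberg adjusted p = 0.041).

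Among the enzymes that make DNA precursors, Rrm1, the large subunit of ribonucleotide reductase, was called higher in N1ICD over MYC/Gfi1 with a log2 fold change of 1.39 ± 0.34 (SE, edgeR Benjamini-Hochberg adjusted p = 0.0299) and in S100b-cell over MYC/Gfi1 with a log2 fold change of 1.67 ± 0.34 (SE, edgeR Benjamini-Hochberg adjusted p = 0.0304). Tk1, thymidine kinase, had a log2 fold change of 1.85 ± 0.43 (SE, edgeR Benjamini-Hochberg adjusted p = 0.0424) in S100b-cell over MYC/Gfi1.

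Other genes of the G1/S switch, 19 symbols that were all tested, held calls in both directions between N1ICD and MYC/Otx2 tumours. In N1ICD over MYC/Otx2, 5 were called higher and 3 lower, where 12% of all tested genes were called higher and 9.76% lower. In S100b-cell over MYC/Otx2, 3 were higher and 1 lower, where the background was 10% and 7.89%. Against MYC/Gfi1, 4 were higher in N1ICD, 0 in S100b-cell and 1 in MYC/Otx2, with 0 lower in each. The background there was 5.47%, 2.34% and 2.43% called higher, and 6.05%, 2.01% and 3.03% called lower. Between N1ICD and S100b-cell, 0 of the 19 were called with edgeR (background 0.808% higher and 0.407% lower). There, 3 had an unadjusted p under 0.05, as did 18.7% of all genes. Cdkn1a encodes p21, an inhibitor of cyclin-dependent kinases. It had 276 ± 49.6 CPM in N1ICD and 20.5 ± 9.54 CPM in MYC/Otx2 tumours (SD, n = 3 each), a log2 fold change of 3.75 ± 0.49 (SE, edgeR Benjamini-Hochberg adjusted p = 0.00154), and in S100b-cell tumours 173 ± 53.8 CPM (SD), a log2 fold change of 3.07 ± 0.48 (SE, edgeR Benjamini-Hochberg adjusted p = 0.00382) over MYC/Otx2. In N1ICD over MYC/Gfi1, Cdkn1a had a log2 fold change of 2.21 ± 0.54 (SE, edgeR Benjamini-Hochberg adjusted p = 0.0297).

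Rb1 and Rbl2 encode the retinoblastoma protein and its relative p130, which hold E2F factors back. In N1ICD over MYC/Otx2, Rb1 had a log2 fold change of 2.53 ± 0.46 (SE, edgeR Benjamini-Hochberg adjusted p = 0.00558) and Rbl2 had a log2 fold change of 3.16 ± 0.63 (SE, edgeR Benjamini-Hochberg adjusted p = 0.00848). E2f6, an E2F factor that represses, had 17.99 ± 3.91 CPM in N1ICD and 73.9 ± 29.3 CPM in MYC/Otx2 tumours (SD, n = 3 each), a log2 fold change of -2.04 ± 0.41 (SE, edgeR Benjamini-Hochberg adjusted p = 0.00876). In S100b-cell over MYC/Otx2, E2f6 had a log2 fold change of -2.22 ± 0.41 (SE, edgeR Benjamini-Hochberg adjusted p = 0.00745), Rbl2 a log2 fold change of 2.55 ± 0.62 (SE, edgeR Benjamini-Hochberg adjusted p = 0.0209) and Tfdp2, a partner of E2F factors, a log2 fold change of 1.82 ± 0.35 (SE, edgeR Benjamini-Hochberg adjusted p = 0.00874). Over MYC/Gfi1 in N1ICD, E2f5 had a log2 fold change of 1.46 ± 0.33 (SE, edgeR Benjamini-Hochberg adjusted p = 0.0222) and E2f8, a repressive E2F factor, a log2 fold change of 2.54 ± 0.72 (SE, edgeR Benjamini-Hochberg adjusted p = 0.0477). E2f3, an activating factor, was called higher in MYC/Otx2 over MYC/Gfi1 with a log2 fold change of 1.66 ± 0.41 (SE, edgeR Benjamini-Hochberg adjusted p = 0.0461). Tfdp1, the E2F partner, had 27 counts in N1ICD and 2 in MYC/Gfi1 tumours, a CPM ratio of 27.2 with an exact 95% counting interval of 6.84 to 236.

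Genes of mitosis and proliferation, 12 symbols that read later steps of the cycle, summed to 1583, 2444 and 2374 CPM in N1ICD tumours, 2940.2, 1946 and 1794 CPM in S100b-cell tumours, 4566, 3970.3 and 3652 CPM in MYC/Otx2 tumours, and 2699.6 and 1789.5 CPM in MYC/Gfi1 tumours. The MYC/Otx2 libraries were the 3 highest for this sum. The members' sum over the mitosis sum was 1.17, 0.986 and 1.22 in N1ICD, 1.29, 1.45 and 1.34 in S100b-cell, 1.01, 0.955 and 1.04 in MYC/Otx2, and 0.829 and 1.01 in MYC/Gfi1 tumours. The S100b-cell ratios lay above those of all other libraries, a description with no test. The mitosis sum also gives most weight to genes with high CPM. Birc5 alone had a mean of 1660 CPM in MYC/Otx2 tumours, where the mean sum was 4063 CPM. In S100b-cell tumours Birc5 had 745 CPM of 2227 CPM, and in N1ICD tumours 515 CPM of 2134 CPM. The mitosis genes did not move as 1 block: in N1ICD over MYC/Otx2, 1 was called higher and 2 lower. Of all tested genes, 12% were called higher there and 9.76% lower. Mki67, a marker of cycling cells, had 226 ± 58.6 CPM in N1ICD and 53.0 ± 3.82 CPM in MYC/Otx2 tumours (SD, n = 3 each), a log2 fold change of 2.09 ± 0.34 (SE, edgeR Benjamini-Hochberg adjusted p = 0.00372). Birc5, a mitotic regulator also known as survivin, had 515 ± 143 CPM in N1ICD and 1660.3 ± 526 CPM in MYC/Otx2 tumours (SD, n = 3 each), a log2 fold change of -1.69 ± 0.30 (SE, edgeR Benjamini-Hochberg adjusted p = 0.00538), and Ccnb1, cyclin B1, had a log2 fold change of -1.45 ± 0.45 (SE, edgeR Benjamini-Hochberg adjusted p = 0.0434). Mki67 had a log2 fold change of 1.20 ± 0.33 (SE, edgeR Benjamini-Hochberg adjusted p = 0.0347) and Birc5 a log2 fold change of -1.16 ± 0.30 (SE, edgeR Benjamini-Hochberg adjusted p = 0.0267) in S100b-cell over MYC/Otx2. Over MYC/Gfi1 in N1ICD, Mki67 had a log2 fold change of 2.42 ± 0.41 (SE, edgeR Benjamini-Hochberg adjusted p = 0.00927) and Bub1, a spindle checkpoint kinase, a log2 fold change of 3.00 ± 0.74 (SE, edgeR Benjamini-Hochberg adjusted p = 0.0303).

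**Figure D5:**
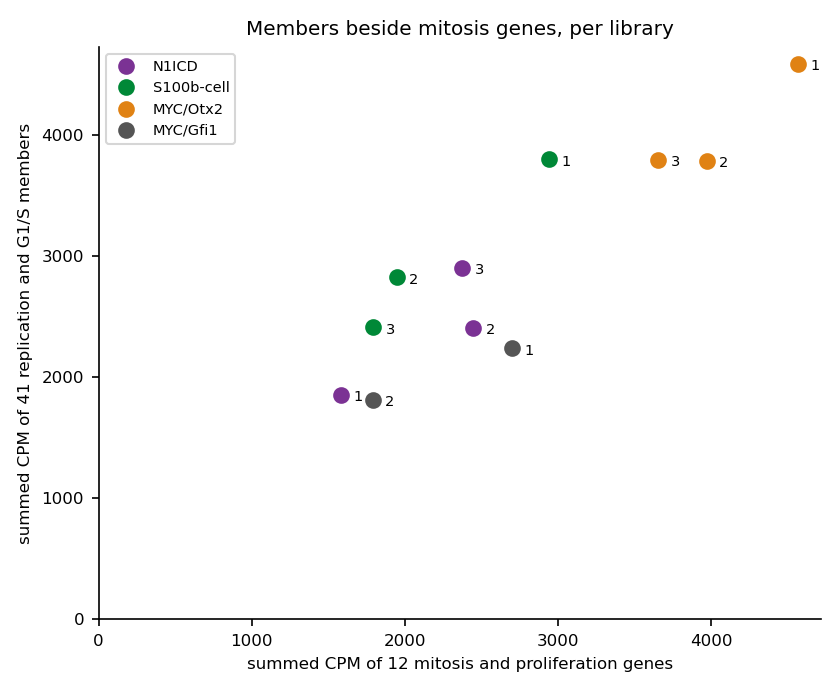
Summed CPM of the 41 members (y axis) against summed CPM of 12 mitosis and proliferation genes (x axis), 1 point per library, numbered by replicate and coloured by group, both axes from 0. The 3 MYC/Otx2 libraries lie farthest right, at 3652 to 4566 CPM of mitosis genes, and the S100b-cell libraries lie highest for their mitosis sum.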

How the data were processed

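The authors deposited raw read counts, not normalized, in a table with a row for each gene symbol and a column for each library. It came from 3′ mRNA sequencing with a kit that adds unique molecular identifiers, per the labels' protocols. Per the submitters' processing notes, STAR 2.4.1d, HTSeq 0.6.1 and the build mm10 were used. The gene annotation, the strand option and any collapse of identifiers are not stated in the sources used here, so intervals from counts cover counting error only.

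Groups were taken from the library titles. Of 38406 genes, 15228 passed edgeR's filterByExpr by group (edgeR 4.0.16 in R 4.3.3). Counts were scaled by TMM, and all 11 libraries entered 1 robust quasi-likelihood fit, because MYC/Gfi1 had 2 libraries. CPM is counts per 1000000 of the scaled total. P-values were two-sided and adjusted by Benjamini-Hochberg over all tested genes of each of 6 comparisons, called at 0.05. The SE is the log2 fold change over the square root of F. Totals of 2.58 to 15.19 M counts set the precision. Libraries of the same group differed by a chi-square of 22.0 to 140 for each degree of freedom, so none were copies. The calling was checked on simulated data.

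Alternatives were RLE and upper-quartile scaling, no filter, a filter of 1 CPM in 3 libraries, DESeq2 1.42.0, limma-voom (limma 3.58.1), a fit of the groups compared alone, a replicate block, mitochondrially encoded genes left out, and each library left out. The members and lists were chosen with earlier results of these data known. Values in every library were given for each member called in at least 1 comparison and for the member with the highest mean of each role. Of the other lists, up to 4 called genes with the smallest p were named per list and comparison; 1 result that this rule names is not reported here. Gene ends came from GENCODE M21 of GRCm38 (mm10), promoter windows from RefSeq (GRCm38.p6).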

Additional observations from a re-analysis of the deposited data

How the results depend on the processing

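Among the 25 calls of a member in a comparison, none reversed over 365 alternatives: 262 kept the call and 103 lost it. The number of members called in N1ICD over MYC/Otx2 was 10 and stayed within 1.5 times of that in every setting that kept all libraries. For MYC/Otx2 over MYC/Gfi1 the count was 4, with 2 under no filter, 12 with DESeq2, 8 with limma-voom and 0 in a fit of the 2 groups alone. For N1ICD over MYC/Gfi1 it was 3, with 9 by DESeq2 and 0 in the fit of the 2 groups alone. For S100b-cell over MYC/Gfi1 it was 3, with 9 by DESeq2, 8 by limma-voom and 0 in the fit of the 2 groups alone. For N1ICD over S100b-cell it was 0, with 1 under no filter, 2 by DESeq2 and 1 by limma-voom. For S100b-cell over MYC/Otx2 it was 5, with 3 under no filter, 9 by DESeq2, 10 by limma-voom and 13 in the fit of the 2 groups alone. The cause of these shifts was not tested. The share of all genes called in each setting is not given beside the counts of this paragraph. The counts therefore describe the settings and are not read as a result about the members. Leaving out 1 library at a time gave 0 to 11 members in MYC/Otx2 over MYC/Gfi1, 1 to 8 in N1ICD over MYC/Gfi1, 0 to 12 in S100b-cell over MYC/Gfi1, 0 to 1 in N1ICD over S100b-cell, 3 to 6 in S100b-cell over MYC/Otx2 and 4 to 11 in N1ICD over MYC/Otx2. With 1 MYC/Gfi1 library left, that library is assumed to vary like the other groups. Whether replicate numbers pair the samples is not stated. Of 15 same-numbered pairs, 3 had a correlation of deviations over 0.1 (range -0.169 to 0.187). These 3 were between the replicates 2 of MYC/Gfi1, MYC/Otx2 and S100b-cell tumours (0.187, 0.139 and 0.149). Pairs with different numbers were not compared, so these correlations cannot decide on pairing. With the replicate number as a block, the counts were 1 in MYC/Otx2 over MYC/Gfi1, 2 in N1ICD over MYC/Gfi1, 1 in S100b-cell over MYC/Gfi1, 0 in N1ICD over S100b-cell, 4 in S100b-cell over MYC/Otx2 and 7 in N1ICD over MYC/Otx2. Of the 25 calls, the block kept 15 and lost 10: Mcm5, Mcm6 and Rpa1 in N1ICD over MYC/Otx2, Prim2 in S100b-cell over MYC/Otx2, Gins2, Pola1 and Rpa2 in MYC/Otx2 over MYC/Gfi1, Ccne2 in N1ICD over MYC/Gfi1, and Ccne2 and Rfc1 in S100b-cell over MYC/Gfi1. The N1ICD libraries are the shallowest, so low members such as Gins2, Rfc4 and Chaf1a are least precise there.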
